A study of Mus musculus with 12 samples.

Results

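The fetal and imprinted growth genes described here are Igf2, H19, Dlk1, Peg3, Plagl1, Cdkn1c, Igf2bp1, Igf2bp2, Igf2bp3 and Gpc3, chosen by name as genes of fetal growth. Of the 10 genes listed, 8 were measured among 19937 genes with a usable array row, each by the row that names this gene alone and has the highest mean. No usable row named H19 or Igf2bp2, so these 2 genes have no value. Liver cells and liver organoids of C57Bl6 mice were hybridised to Affymetrix MoGene 1.0 ST arrays, 3 libraries in each of 4 groups and 12 in all. The group labelled hepatocyte held YFP+ liver cells that were uninduced and sorted by FACS. The group labelled wild-type held organoids kept under wild-type conditions, also cultured for 2 weeks. In both other groups Yap, the transcriptional coactivator that the Hippo pathway restrains, had been on in the liver for 3 weeks before organoid culture of 2 weeks. In culture without doxycycline Yap was off (Yap-off organoids), and with doxycycline it remained on (Yap-on organoids). Animal age, the promoter driving Yap or YFP, and whether organoids were clonal or pooled were not given in the sources used here. Nothing in the labels assigns the replicates to separate animals, so p-values cover only library-to-library spread, part or all of which may be technical.

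Most of these genes belong to the growth programme of the embryo, which the mouse liver largely shuts down after birth. Igf2, a secreted growth factor that signals through the IGF1 receptor, is made from the paternal allele, and H19 is a noncoding RNA made from the maternal allele of the same imprinted domain. Dlk1, Peg3 and Plagl1 are also expressed from the paternal allele and Cdkn1c from the maternal allele. The Igf2bp genes encode RNA-binding proteins of fetal tissues that bind Igf2 and other mRNAs. Gpc3, on the X chromosome, is not an imprinted gene; it encodes a heparan sulfate proteoglycan of the cell surface that is abundant in fetal liver, and its loss causes overgrowth in mice and humans.

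The promoter sequences of the 3 genes with the largest differences between Yap-on and Yap-off organoids are shown because YAP acts on DNA through TEAD transcription factors. RefSeq (GRCm38.p6) gave windows from 250 bases before to 50 bases after a transcription start for 7 of the 10 listed genes, 10 windows in all. Capitals mark the letters GGAATG or CATTCC, which are the same TEAD core motif read on either strand. Sequences run 5′ to 3′ on the gene's strand, which is the minus strand in each case.
Igf2, chr7:142661222-142661521: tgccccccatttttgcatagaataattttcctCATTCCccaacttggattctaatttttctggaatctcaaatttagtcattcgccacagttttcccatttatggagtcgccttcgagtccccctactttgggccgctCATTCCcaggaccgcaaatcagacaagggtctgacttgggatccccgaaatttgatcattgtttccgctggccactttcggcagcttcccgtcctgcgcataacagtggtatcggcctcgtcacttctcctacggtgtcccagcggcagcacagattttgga
Igf2, chr7:142657447-142657746: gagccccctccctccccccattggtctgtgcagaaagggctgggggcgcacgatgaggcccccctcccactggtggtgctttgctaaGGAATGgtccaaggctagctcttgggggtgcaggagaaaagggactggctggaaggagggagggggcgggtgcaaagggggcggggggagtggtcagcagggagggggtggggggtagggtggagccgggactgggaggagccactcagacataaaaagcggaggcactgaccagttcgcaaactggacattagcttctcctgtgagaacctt
Peg3, chr7:6730370-6730669: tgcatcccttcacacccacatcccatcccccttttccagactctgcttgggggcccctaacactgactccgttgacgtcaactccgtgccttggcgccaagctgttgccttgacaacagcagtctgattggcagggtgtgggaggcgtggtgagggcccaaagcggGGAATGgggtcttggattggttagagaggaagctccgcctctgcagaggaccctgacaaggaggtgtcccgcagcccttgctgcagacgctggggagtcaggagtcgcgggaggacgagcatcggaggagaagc
Gpc3, chrX:52613925-52614224: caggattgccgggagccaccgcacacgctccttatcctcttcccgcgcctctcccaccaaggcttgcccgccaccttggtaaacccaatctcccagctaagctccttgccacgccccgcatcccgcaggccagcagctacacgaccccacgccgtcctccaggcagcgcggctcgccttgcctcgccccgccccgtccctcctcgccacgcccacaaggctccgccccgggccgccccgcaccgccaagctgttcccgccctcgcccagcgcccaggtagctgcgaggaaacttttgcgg
The first Igf2 window holds the motif at positions -218 and -112 relative to the start, and the other Igf2 window shown holds it at -163. In the Peg3 window it lies at -84. The Gpc3 window holds none, nor does the Igf2 window at chr7:142666767-142667066, which is not shown. Of the 10 windows of these genes, 4 hold the motif, 3 of them Igf2 windows and the other that of Peg3. Of 32851 mouse promoter windows of the same length, 14.7% hold it. By gene, 2 of the 7 with a window hold it, and the share by gene over all promoters is not given here. The Gpc3 window is rich in CG pairs, with 30 against a median of 7 over all promoters. That of Peg3 has 13, and the 4 Igf2 windows have 2 to 24. A match of letters is a description of the sequence and shows no binding.

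All values below are log2 of the deposited intensity. The median gene lay between 4.14 and 4.34 on the 12 arrays. Hepatocyte-labelled and wild-type-labelled libraries did not hold together. Array correlations across genes within these groups went down to 0.822 and 0.800, whereas the lowest was 0.975 among Yap-off and 0.992 among Yap-on organoids. The summed intensity of 10 macrophage markers was 26446.7 in the hepatocyte-labelled library 2 and 14309.0 and 22856.9 in wild-type-labelled libraries 1 and 3, but at most 487.5 in the other 3 libraries of these groups. The hepatocyte-labelled and the wild-type-labelled library 2 thus each stood apart from the rest of their group, and each result that rests on these groups is given with and without both, which are called doubtful below; this does not tell which labels are wrong. In hepatocyte-labelled libraries 1 and 3, Cyp2e1, a cytochrome P450 of mature hepatocytes, was at 3.16 and 3.22, and the bile duct keratin Krt19 at 10.21 and 9.82. Hepatocyte-labelled library 2 had Cyp2e1 at 10.14 and Krt19 at 4.95. Wild-type-labelled libraries 1 and 3 had Cyp2e1 at 10.03 and 9.90, and number 2 had 2.74. Hepatocyte-labelled library 2 correlated at 0.936 and 0.951 with wild-type-labelled libraries 1 and 3. Wild-type-labelled library 2 correlated at 0.953 and 0.955 with hepatocyte-labelled libraries 1 and 3. The hepatocyte-labelled libraries kept without both doubtful ones are thus those with low Cyp2e1. The 7 libraries with low Xist (3.00 to 3.30) comprised the Yap-on organoids, all wild-type-labelled libraries and hepatocyte-labelled library 2. The 5 others had Xist between 8.49 and 9.20 and Y-linked transcripts (3 genes) between 2.47 and 3.76, a range at which transcripts that should be absent read on these arrays (the background range). Where all libraries of a group lay below its upper end, a fold is given as a lower bound, with the dimmer group's libraries raised to that end, and the fitted log2 difference is only that between the measured values. Sex-linked transcripts therefore differed between all Yap-on and all Yap-off libraries, and this difference and Yap cannot be told apart.

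With Yap on in culture, 5 of the 8 growth genes fell and 0 rose relative to Yap-off organoids (at an unadjusted p under 0.05, Plagl1 was higher and Cdkn1c lower as well). Gpc3, Igf2 and Peg3 had the largest log2 differences among them, at -7.26, -5.42 and -5.21, followed by Igf2bp3 and Dlk1. Gpc3 in Yap-on organoids and Plagl1 in Yap-off organoids were within the background range. In limma's fit of these 6 arrays, 31.2% of all genes were called at an adjusted p under 0.05, 12% as lower and 19.1% as higher. The groups did not overlap for 7 of the 8 genes, as for 53.5% of all genes. The median difference over the 8 genes was -1.25, against -0.08 over all genes. In bulk RNA, fewer cells of a type and less RNA per cell cannot be told apart. When the spread was estimated from all 12 arrays, 3 of the 8 genes were called (Igf2, Dlk1 and Igf2bp3), against 11.5% of all genes. Without 1 of the 6 libraries the number called stayed between 5 and 6, while the number over all genes moved from 6212 to 3763 without Yap-on library 1 and to 4065 without Yap-on library 2.

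**Figure D1:**
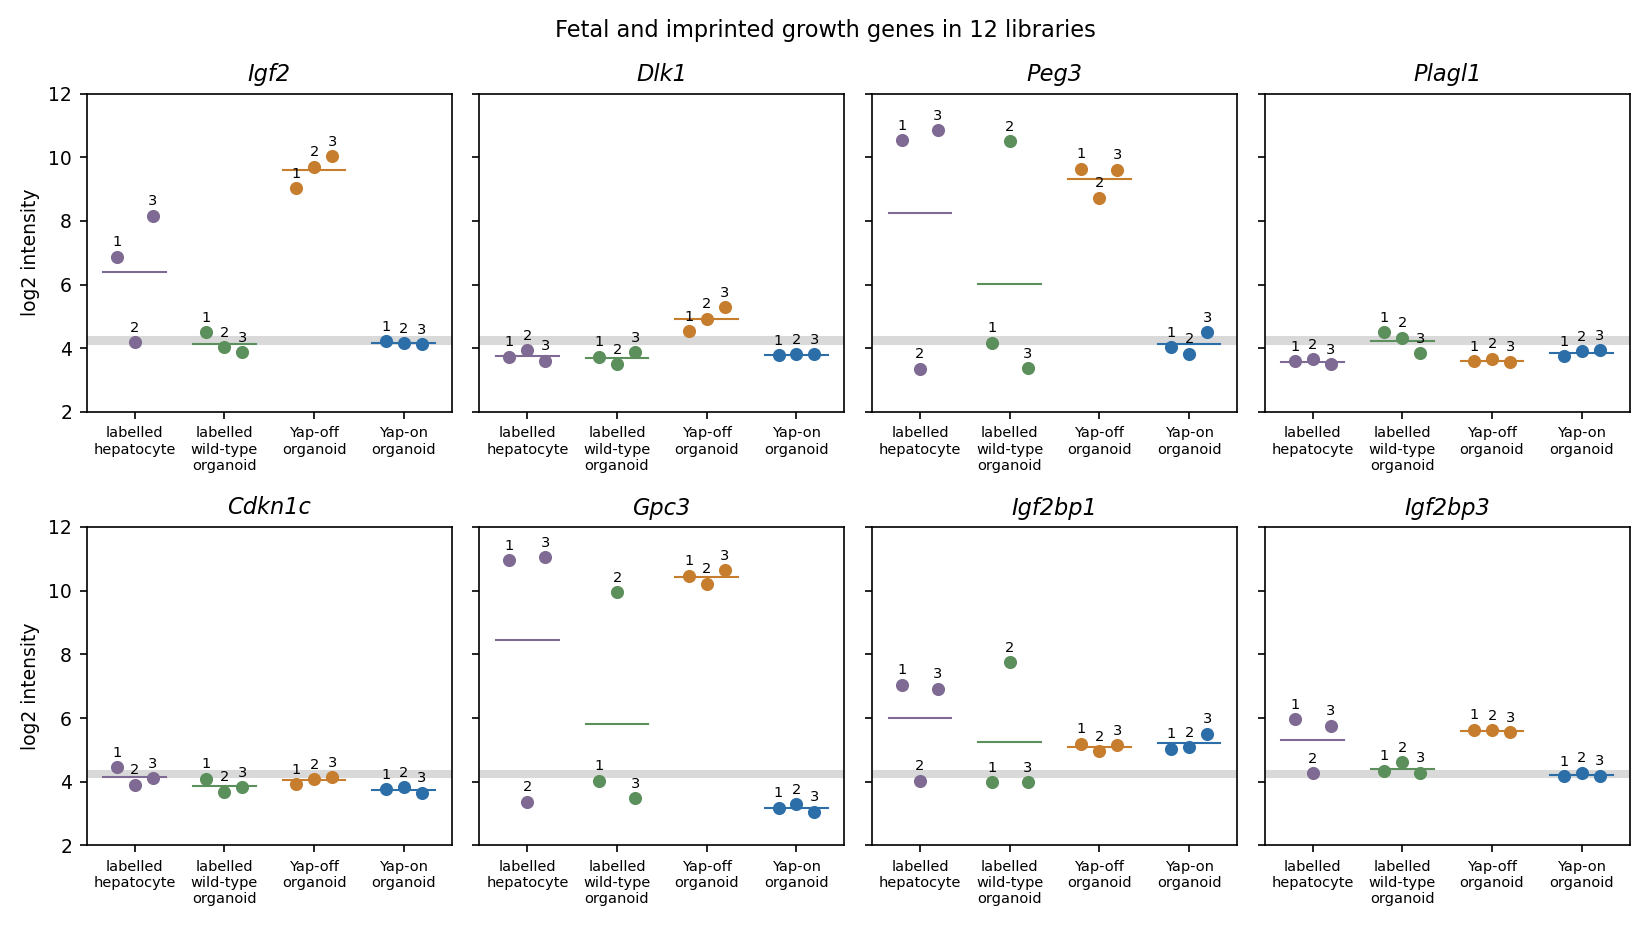
Log2 intensity of the 8 measured growth genes in each of 12 libraries, one panel per gene, with numbered points for replicates, horizontal lines for group means and a grey band for the range of array medians (4.14 to 4.34). Igf2, Gpc3, Peg3, Igf2bp3 and Dlk1 were higher in every Yap-off than in every Yap-on library, and the hepatocyte-labelled and wild-type-labelled libraries split for Gpc3 and Peg3.

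The ligand Igf2 measured 9.03, 9.70 and 10.04 in the 3 Yap-off libraries and 4.22, 4.16 and 4.13 in the Yap-on libraries. The Yap-on values were at the level of the median gene. The means were 9.59 ± 0.51 and 4.17 ± 0.05 (SD, n = 3 libraries each), a linear ratio of 42.7 (log2 difference -5.42, SE 0.24, 95% interval -5.99 to -4.84, limma adjusted p = 1e-05). Among 19937 genes the Igf2 difference ranked 92 from the lowest. Igf2 was also at the level of the median gene in all wild-type-labelled libraries, at 4.51, 4.03 and 3.88. The hepatocyte-labelled libraries split, with 6.87 and 8.16 in numbers 1 and 3 and 4.19 in number 2. All Yap-off values exceeded every value elsewhere. Across the 12 libraries Igf2 was at least 6.87 in the 5 with high Xist and at most 4.51 in the 7 with low Xist.

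Igf2bp3, an RNA-binding protein of the same axis, also fell with Yap on. It measured 5.63, 5.61 and 5.55 in Yap-off and 4.16, 4.28 and 4.18 in Yap-on organoids. It fell by 1.39 on the log2 scale with Yap on (SE 0.09, 95% interval -1.60 to -1.17, limma adjusted p = 6.67e-05). The hepatocyte-labelled libraries 1 and 3, at 5.96 and 5.75, were the only ones above the Yap-off organoids, and number 2 was at 4.26. The wild-type-labelled libraries ranged from 4.28 to 4.61. Its paralogue Igf2bp1 was not called. It measured 5.20, 4.95 and 5.14 in Yap-off and 5.03, 5.09 and 5.51 in Yap-on organoids, and the groups overlapped. The difference of 0.11 (SE 0.15, limma adjusted p = 0.578) has a 95% interval of -0.25 to 0.47, and its sign turned under renewed quantile normalization (-0.09). Igf2bp1 was highest in the wild-type-labelled library 2, at 7.75, and in hepatocyte-labelled libraries 1 and 3, at 7.04 and 6.92, while the others of these groups lay at 3.99 to 4.04.

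Dlk1, a transmembrane protein of the Delta family and a classical hepatoblast marker, was the weakest of the genes that fell. Its values were 4.53, 4.93 and 5.28 in Yap-off organoids and 3.78, 3.81 and 3.81 in Yap-on organoids. The 9 libraries outside the Yap-off group all lay between 3.51 and 3.93, below the median gene of the arrays. These values were within or just above the background range, whose upper end was 3.76, and the Yap-on values were just above it. With Yap on, Dlk1 fell by 1.11 on the log2 scale (SE 0.19, 95% interval -1.56 to -0.67, limma adjusted p = 0.00472). The linear ratio of 2.17 is only that between measured values, since the Yap-on values were close to background.

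Peg3, a zinc finger protein, measured 9.64, 8.73 and 9.61 in Yap-off and 4.03, 3.82 and 4.50 in Yap-on organoids. It fell by 5.21 on the log2 scale (SE 0.29, 95% interval -5.89 to -4.52, limma adjusted p = 2.95e-05), a linear ratio of 37.0. With the spread of all 12 arrays the same difference had an SE of 2.14 and an adjusted p of 0.152. Peg3 was at 10.53, 3.36 and 10.84 in the hepatocyte-labelled libraries (SD 4.23) and at 4.18, 10.50 and 3.38 in the wild-type-labelled libraries (SD 3.90). In each of these groups the library numbered 2 was the odd one.

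Gpc3 had the largest fitted difference of the 8 genes. It measured 10.47, 10.22 and 10.64 in Yap-off organoids and 3.18, 3.29 and 3.06 in Yap-on organoids, the latter all within the background range. Gpc3 was thus at least 102.7-fold lower with Yap on, and the fitted log2 difference was -7.26 (SE 0.13, 95% interval -7.58 to -6.94, limma adjusted p = 1.94e-07). On all 12 arrays the adjusted p was 0.0537 (SE 2.10). Gpc3 was at 10.96, 3.37 and 11.05 in the hepatocyte-labelled libraries and at 4.03, 9.96 and 3.49 in the wild-type-labelled libraries. The split by library was that of Peg3.

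Plagl1, a zinc finger transcription factor, and Cdkn1c, an inhibitor of cyclin-dependent kinases, were near or below the median gene throughout. Plagl1 measured 3.59, 3.67 and 3.58 in Yap-off and 3.74, 3.91 and 3.93 in Yap-on organoids, without overlap but not called (log2 difference 0.25, 95% interval 0.02 to 0.48, limma adjusted p = 0.0934). All its Yap-off values lay within the background range, and the lower bound of the fold was 1.1. Cdkn1c measured 3.92, 4.08 and 4.13 in Yap-off and 3.76, 3.82 and 3.66 in Yap-on organoids, again without overlap and not called (log2 difference -0.30, 95% interval -0.54 to -0.05, limma adjusted p = 0.0685). Plagl1 was called as higher under renewed quantile normalization (0.38, adjusted p = 0.0257), and Cdkn1c as lower without Yap-off library 1 (-0.36, adjusted p = 0.0362). Over the 12 libraries Plagl1 was highest in wild-type-labelled libraries 1 and 2, at 4.50 and 4.34, and Cdkn1c in hepatocyte-labelled library 1, at 4.45.

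**Figure D2:**
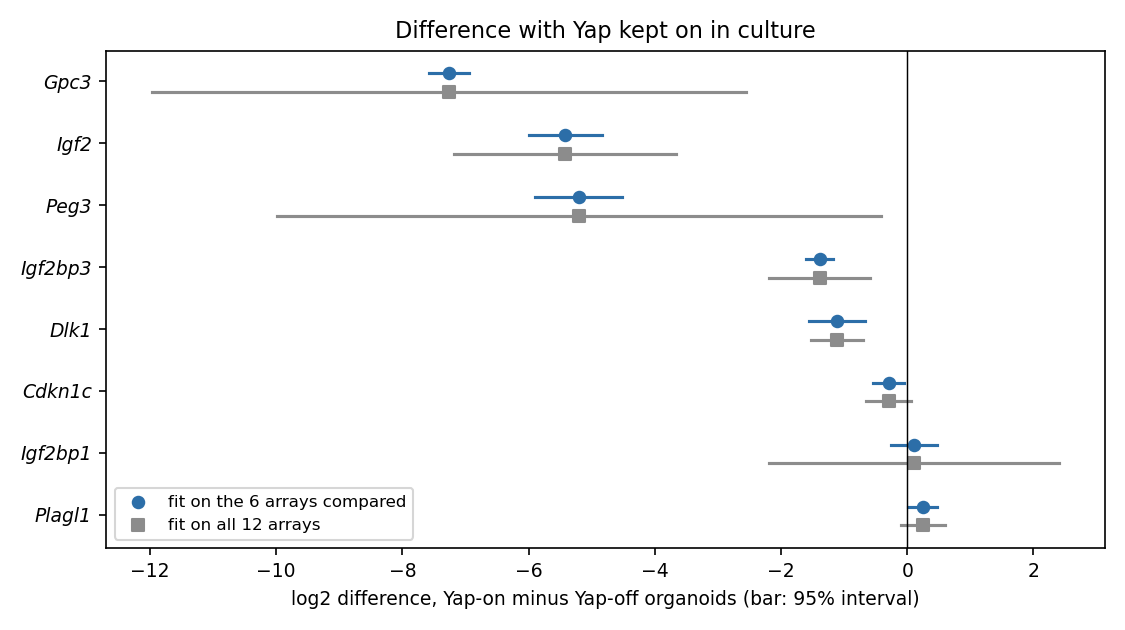
Log2 difference between Yap-on and Yap-off organoids for the 8 growth genes, with 95% intervals from the fit of the 6 arrays compared (circles) and from all 12 arrays (squares). The points coincide, and the intervals of Gpc3, Peg3 and Igf2bp1 widen the most with 12 arrays. Gpc3 in Yap-on organoids and Plagl1 in Yap-off organoids lay within the background range.

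Markers of some cell types also differed between Yap-off and Yap-on organoids, and not all in the direction of these genes. The summed intensity of 9 measured hepatocyte markers was 23251.1 to 29347.2 in Yap-off and 2894.9 to 3164.2 in Yap-on organoids, and all 9 fell. That of 8 biliary markers was 1365.9 to 1568.4 and 8415.8 to 9783.9, with 6 higher and 1 lower. The lower one was Ankrd1 (-1.26, limma adjusted p = 0.007). At 9.13 to 9.46 it was the highest of the 8 in Yap-off organoids and so weighs heavily in their sum. Of 12 stellate and mesenchymal markers, 4 fell (Vim, Reln, Dcn and Des) and 0 rose (0 also at an unadjusted p under 0.05), and their sum was 1166.1 to 1491.3 against 134.6 to 144.4. Vim alone made up 64.0% to 75.0% of that sum in Yap-off organoids, and Pdgfrb, Pdgfra, Col1a1, Col1a2, Col3a1, Lrat and Acta2 were not called. Of 10 macrophage markers, Lyz2 (-2.71), C1qb (-1.03) and Vsig4 (-0.84) fell and Cd68 (1.21) rose, with sums of 179.6 to 244.7 and 186.3 to 202.7. Lyz2, C1qb and Vsig4 lay within the background range in Yap-on organoids. Lyz2 was thus at least 3.6-fold and C1qb at least 1.4-fold lower, and Vsig4 has no bound. Of 10 endothelial markers Fcgr2b fell (-0.50), with sums of 98.1 to 104.2 and 86.2 to 92.0. Fcgr2b too lay within the background range in Yap-on organoids, with a lower bound of 1.1-fold. No marker was listed at an intensity of 0. The part that these markers have in the difference of the growth genes was not tested.

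**Figure D3:**
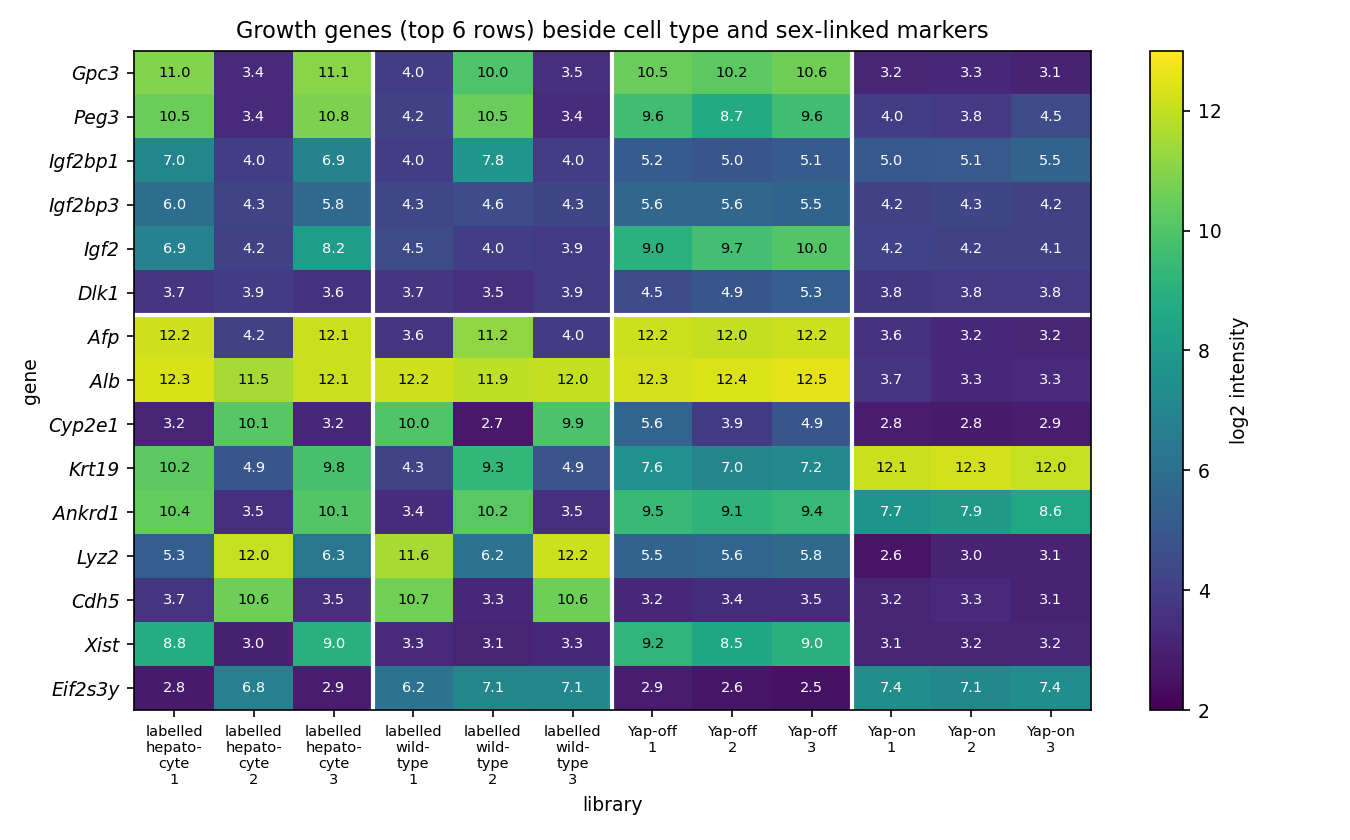
Log2 intensity (colour and printed value) of 6 growth genes and of Afp, Alb, Cyp2e1, Krt19, Ankrd1, Lyz2, Cdh5, Xist and Eif2s3y in each of 12 libraries. Gpc3 and Peg3 were high in the libraries with high Afp, including wild-type-labelled library 2, while Igf2 was not high in the latter (4.03).

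Of 22 genes of the IGF axis (the ligand Igf1, receptors, binding proteins and signalling adaptors), 13 were lower and 3 higher with Yap on, with a median difference of -0.63. These shares were 59.1% and 13.6%, against 12% and 19.1% of all genes. Of the 13 lower genes of the axis, Igfbp5 and Pappa2 were within the background range in both groups. The binding proteins, which hold IGFs in the extracellular space, made up most of the large changes. Igfbp1 averaged 11.56 in Yap-off and 3.43 in Yap-on organoids (fitted log2 difference -8.13, SE 0.11, limma adjusted p = 1.22e-07). The latter lay within the background range, so Igfbp1 was at least 223.7-fold lower. Igfbp4 fell by 5.56 (SE 0.14, adjusted p = 6.22e-07) and Igfbp2 fell by 3.47 (SE 0.23, adjusted p = 7.13e-05), the latter to within the background range and thus at least 10.3-fold. Stc1, a stanniocalcin that restrains IGF release, fell by 2.69 (adjusted p = 6e-05), the growth hormone receptor Ghr fell by 2.25 (adjusted p = 0.026) and Igfbp6 fell by 1.87 (adjusted p = 0.0487). The 3 genes that were higher with Yap on are named after their values were seen. Stc2, the other stanniocalcin of the list, rose by 1.28 (SE 0.26, adjusted p = 0.01). Igf1r, which transmits the Igf2 signal, rose by 1.20 (SE 0.20, adjusted p = 0.00473). Igf2r, which clears Igf2, rose by 0.75 (SE 0.17, adjusted p = 0.0145). On all 12 arrays 3 genes of the axis were called as lower (Igfbp1, Igfbp4 and Igfbp2). The adjusted p there was 0.455 for Stc2, 0.3 for Igf1r and 0.387 for Igf2r.

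Of 38 other imprinted genes listed, 33 were measured, of which 8 were lower and 4 higher with Yap on, with a median difference of -0.25. The share called, 36.4%, was near the 31.2% of all genes. Slc38a4, an amino acid transporter, fell from 9.49 to 3.31, the latter within the background range, and was thus at least 53.2-fold lower (fitted log2 difference -6.18, SE 0.16, limma adjusted p = 6.72e-07). Kcnq1, a potassium channel of the imprinted domain that also holds Cdkn1c, rose by 5.02 (SE 0.17, adjusted p = 2.47e-06), from 4.05 to 9.07. Rasgrf1, a Ras exchange factor, rose by 2.66 (SE 0.19, adjusted p = 0.000104). The proteoglycan Dcn, within the background range in Yap-on organoids, fell by 2.20, the sarcoglycan Sgce fell by 1.84, and the noncoding RNA Meg3, of the same imprinted domain as Dlk1, fell by 1.32 (adjusted p = 0.000477, 0.000983 and 0.0458). Zim1, a zinc finger gene next to Peg3 that was named after its values were seen, was within the background range in both groups, at means of 3.64 and 2.79 (fitted difference -0.85, adjusted p = 0.00109). On all 12 arrays 2 genes of this list were called each way.

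**Figure D4:**
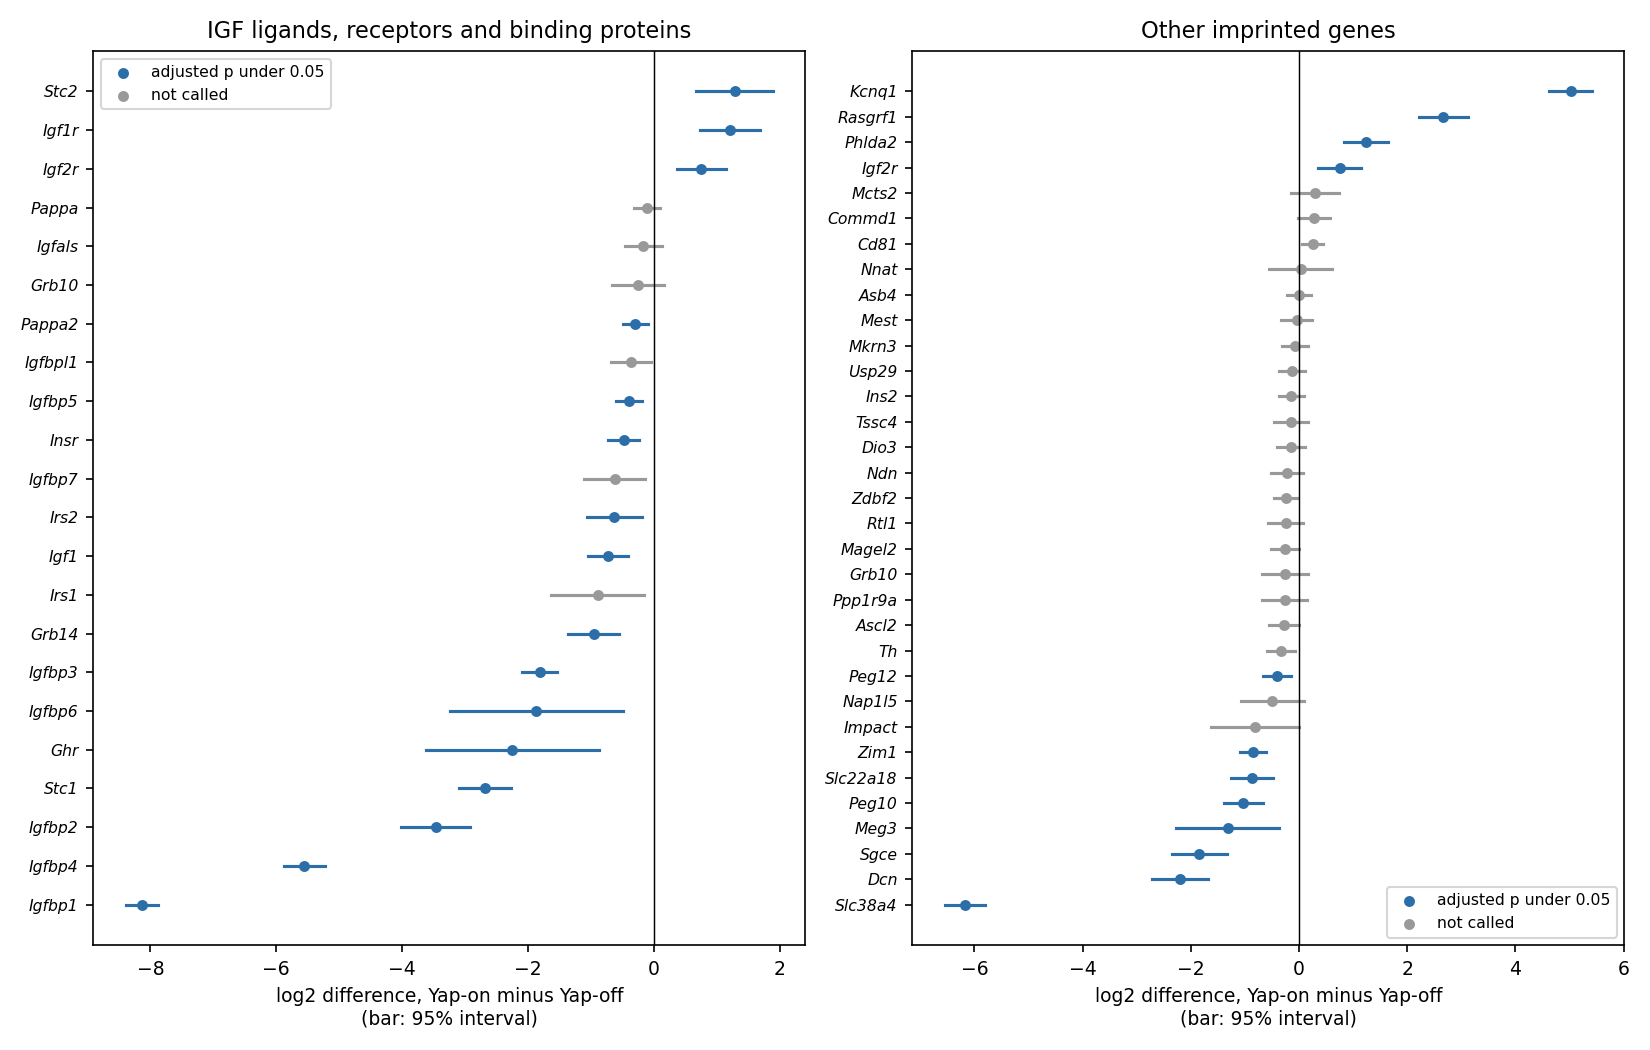
Log2 difference between Yap-on and Yap-off organoids, with 95% intervals from the fit of 6 arrays, for 22 genes of the IGF axis (left) and 33 other imprinted genes (right), with genes called at an adjusted p under 0.05 in blue. Igfbp1 (-8.13) and Slc38a4 (-6.18) mark the lower ends, and Kcnq1 (5.02) the upper end. Igfbp1 and Slc38a4 lay within the background range in Yap-on organoids.

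Markers of fetal liver and hepatoblasts, a list that includes Dlk1 and Gpc3, were lower with Yap on in 11 of 18 measured genes and higher in 4. That was 61.1% and 22.2% of the list, against 12% and 19.1% of all genes. The fetuin Ahsg, Afp, the albumin of the fetal liver, and the trypsin inhibitor Spink1 lay within the background range in Yap-on organoids. Ahsg was at least 387.2-fold lower there (fitted log2 difference -9.46, SE 0.11, limma adjusted p = 1.22e-07), Afp at least 326.4-fold (-8.77, SE 0.13, adjusted p = 1.22e-07) and Spink1 at least 92.3-fold (-7.22, adjusted p = 1.09e-06). Bex1 fell by 3.05 (adjusted p = 0.00139). Prom1, a membrane protein of progenitor and ductal cells that was within the background range in Yap-off organoids, was at least 50.3-fold higher with Yap on (6.12, adjusted p = 1.03e-06). On all 12 arrays 5 genes of the list were called as lower and 1 as higher, and without Yap-on library 2 on the 6 arrays 7 were called as lower.

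Of 15 measured glypicans and other heparan sulfate genes, 7 were lower and 0 higher with Yap on in limma's fit (1 higher at an unadjusted p under 0.05). The share lower was 46.7%, against 12% of all genes. Sdc2, a syndecan, fell by 4.32 (SE 0.23, adjusted p = 2.58e-05). Gpc4, a glypican on the X chromosome like Gpc3, fell by 3.94 (SE 0.17, adjusted p = 8.91e-06), from 8.69 to 4.75. The chain-making enzyme Ext1 fell by 1.45, Gpc6 fell by 1.11 and Sdc4 fell by 0.84 (adjusted p = 0.000628, 0.00516 and 0.00439). Gpc5, also called as lower (-0.41, adjusted p = 0.0419), was within the background range in both groups. Sdc2 and Gpc4 were the 2 called on all 12 arrays, and without Yap-off library 2 there were 2 genes called as higher.

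Among 11 measured oncofetal RNA regulators, 1 was lower and 3 were higher (9.09% and 27.3%, against 12% and 19.1% of all genes). Together 36.4% were called, near the 31.2% of all genes. Hmga2, a chromatin protein of fetal tissue whose mRNA the Igf2bp proteins bind, fell by 2.62 (SE 0.24, limma adjusted p = 0.000358). It measured 9.47, 8.74 and 8.78 in Yap-off and 6.22, 6.75 and 6.17 in Yap-on organoids, and its adjusted p was 0.119 on all 12 arrays. Tut4, which adds uridines to RNA, rose by 1.26, E2f5, a transcription factor, by 1.09 and Dis3l2, an exonuclease, by 0.67 (adjusted p = 0.0364, 0.00736 and 0.0174). Without Yap-on library 1 or 2, 1 gene of this list was called as higher, and without Yap-off library 1, 2 were called as lower. Lin28a and Lin28b, regulators of let-7 named after their values were seen, were at 2.95 to 3.71 and 2.79 to 3.38 over the 12 libraries, within the background range.

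Of 6 measured inhibitors of cyclin-dependent kinases besides Cdkn1c, only Cdkn2b was called (-0.55, limma adjusted p = 0.00413), and its adjusted p was 0.781 on all 12 arrays. Without Yap-off library 1, 2 of them were called as lower and 1 as higher, and without Yap-off library 2, 1 as higher. Of 10 Notch ligands and receptors, the family to which Dlk1 is related, 3 were called, a share near the 31.2% of all genes. Jag2 rose by 2.20 (SE 0.24, adjusted p = 0.000681), while Notch4 fell by 0.43 and Dll4 fell by 0.37 at low levels (adjusted p = 0.0426 and 0.0399), Dll4 to within the background range. Neither of the latter was called on all 12 arrays, or without any 1 of the 3 Yap-on libraries or Yap-off library 2 or 3.

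The remaining comparisons share libraries with each other and used the spread of all 12 arrays. Yap-off organoids had 2 of 8 genes higher than organoids labelled wild-type, where limma called 2.61% of all genes, 1.42% as higher. They were Igf2 (log2 difference 5.45, SE 0.79, adjusted p = 0.0118) and Dlk1 (1.21, SE 0.18, adjusted p = 0.0144). The Igf2 call ended without Yap-off library 2 (adjusted p = 0.0516) or 3 (0.0549), and the Dlk1 call without Yap-off library 2 (0.0582) and when only the 6 arrays compared were fitted (0.135), where 0.306% of all genes were called. The groups did not overlap for 5 of the 8 genes, as for 19.3% of all genes. The other 3 were Gpc3 (4.61, adjusted p = 0.269), Igf2bp3 (1.19, adjusted p = 0.121) and Plagl1 (-0.61, adjusted p = 0.077). Plagl1 in Yap-off organoids lay within the background range. Without both doubtful libraries 7 of 8 genes were called, against 32.3% of all genes, and the Gpc3 difference was 6.68 (adjusted p = 1.05e-08). The 2 wild-type-labelled libraries then left had macrophage marker sums of 14309.0 and 22856.9 and endothelial marker sums of 13122.7 and 7465.0, against 179.6 to 244.7 and 98.1 to 104.2 in Yap-off organoids, and the part of these cell types in the calls was not tested.

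Against the hepatocyte-labelled libraries, Yap-off organoids had 1 of 8 genes called, with 1.9% of all genes called and 0.878% called as higher: Dlk1 was higher by 1.16 (SE 0.18, limma adjusted p = 0.0159). That call ended on the 6 arrays alone (adjusted p = 0.106, with 0.717% of all genes called) and without Yap-off library 2 (0.0596) or 3 (0.0516) or the hepatocyte-labelled libraries 1 (0.0663) or 3 (0.0683). Igf2 was also without overlap, which held for 2 of 8 genes and for 19.6% of all genes. Its difference was 3.18 (SE 0.79, adjusted p = 0.0847). It was called without the hepatocyte-labelled library 2 (2.07, adjusted p = 0.0214) or 3 (4.06, adjusted p = 0.0311). Without both doubtful libraries 4 of 8 genes were called, against 14% of all genes. The hepatocyte-labelled libraries then left were those with low Cyp2e1 and high Krt19.

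Yap-on organoids had 0 of 8 genes called in limma against organoids labelled wild-type (1 at an unadjusted p under 0.05), where 5.47% of all genes were called. Gpc3 was the only one of the 8 genes without overlap there (-2.65, adjusted p = 0.467), as were 26% of all genes. Against the hepatocyte-labelled libraries, Yap-on organoids likewise had 0 of 8 genes called (4 at an unadjusted p under 0.05), with 6.19% of all genes called. There Gpc3 (-5.28, SE 2.10, adjusted p = 0.202), Cdkn1c (-0.40, adjusted p = 0.2) and Plagl1 (0.28, adjusted p = 0.365) were without overlap, 3 of 8 genes against 39.6% of all genes. Gpc3 in Yap-on organoids and Plagl1 in the hepatocyte-labelled libraries lay within the background range. Gpc3 was called there without the hepatocyte-labelled library 2 (-7.83, adjusted p = 0.0125). Without both doubtful libraries 2 and 6 of the 8 genes were called in these comparisons, against 41% and 21.6% of all genes. The former again rests on the wild-type-labelled libraries with high macrophage and endothelial sums. The latter rests on the hepatocyte-labelled libraries with low Cyp2e1 and high Krt19.

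Between the wild-type-labelled and hepatocyte-labelled libraries, limma called 0 of the 8 genes (3 at an unadjusted p under 0.05) and 0.0502% of all genes. Plagl1 was higher in every wild-type-labelled library (0.64, adjusted p = 0.276), the only one of the 8 genes without overlap, against 7.64% of all genes. All its hepatocyte-labelled values lay within the background range. Without both doubtful libraries 6 of 8 genes were called, against 30.7% of all genes. The macrophage and endothelial sums were then 351.4 to 487.5 and 114.0 to 118.1 in the hepatocyte-labelled libraries left, against the sums given above for wild-type-labelled libraries 1 and 3.

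The growth genes did not share a single pattern over the 12 libraries. Correlations over 12 arrays, which share groups and normalization, are given as descriptions. Peg3 and Gpc3 rose and fell together (r = 0.98), and Igf2bp3 went with Gpc3 (r = 0.93) and with Igf2 (r = 0.89). Igf2 went less closely with Gpc3 (r = 0.81) and hardly with Igf2bp1 (r = 0.16). The wild-type-labelled library 2 separates these patterns, since it had Gpc3 at 9.96, Peg3 at 10.50 and Igf2bp1 at 7.75 but Igf2 at 4.03 and Igf2bp3 at 4.61. The genes most like Gpc3 among all others were Afp (r = 0.996), Vgll3 (0.990) and Itih5 (0.989). Those most like Peg3 were Pla1a (0.989), Vgll3 (0.989) and Gpc3 (0.982). For Igf2 they were Zyg11b (0.976), Cyp4a31 (0.963) and Fmo4 (0.961), and for Igf2bp1 Rhobtb3 (0.965), Col4a5 (0.956) and Pak3 (0.954). Afp itself stood at 12.20, 4.17 and 12.10 in the hepatocyte-labelled libraries, at 3.65, 11.16 and 3.96 in the wild-type-labelled libraries, at 11.99 to 12.18 in Yap-off and at 3.19 to 3.58 in Yap-on organoids.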

How the data were processed

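Per the labels' protocols, RNA came from the Qiagen microRNEasy kit and was amplified with Nugen Pico WT and biotin-labelled. The deposited values are intensities on a linear scale that the authors made with RMA, per the submitters' processing notes; no software version was given. Log2 of the deposited intensity was taken here. Of 34760 rows, 22961 were in the probe table; 1321 naming several genes were left out, and 21640 naming 1 gene gave 19937 genes, each by its row of highest mean. No 2 arrays were identical.

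Groups came from the labels. Differences were fitted with limma 3.58.1 (R 4.3.3) and adjusted by Benjamini-Hochberg over 19937 genes, called under 0.05. Yap-on and Yap-off organoids were fitted on their 6 arrays (4 residual and 2.86 prior degrees of freedom), because the other groups mix unlike libraries. The other 5 comparisons used all 12 arrays (8 and 1.76). Without overlap means that every library of a group lies above every library of the other. With 3 libraries a group the number of arrays limits the precision. The fit was also run on simulated data with independent noise and far fewer changed genes than were called here. That run therefore does not show how the fit performs on these data.

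The genes, lists and design were chosen with earlier results of these data known. Named are the listed genes, up to 6 called members per list with the largest difference, and the 3 genes most correlated with each listed gene whose range is at least 2. The alternatives were renewed quantile normalization, median centring, other choices of row, a filter on the 30% of genes of lowest mean, log2 of intensity plus 16, an intensity trend, array weights, other sets of arrays, a replicate block and leaving out libraries. Leaving out the hepatocyte-labelled and the wild-type-labelled library 2 together was added after seeing the data. Figures were drawn with matplotlib 3.10.9.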

Additional observations from a re-analysis of the deposited data

How the results depend on the processing

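For Yap-on against Yap-off organoids, Igf2, Dlk1 and Igf2bp3 kept their direction and call under every alternative run, and Gpc3 and Peg3 under all but the fit of all 12 arrays, which called 3 growth genes and 2283 of all genes. Leaving out a library gave 5 to 6 growth genes and 3763 to 7853 of all genes, with Igf2 at -5.70 to -5.19, Gpc3 at -7.38 to -7.17 and Dlk1 at -1.31 to -0.93. Igf2bp1 reversed under renewed quantile normalization (-0.087), with the mean of its rows (-0.022) and without Yap-on library 3 (-0.0371, the lowest of a range up to 0.20 over the libraries left out). Array weights called 6 growth genes for Yap-off against wild-type organoids, 1 for Yap-on against wild-type, 6 for wild-type organoids against hepatocytes, 3 for Yap-off against hepatocytes and 6 for Yap-on against hepatocytes. In the same order, leaving out both doubtful libraries gave 7, 2, 6, 4 and 6, and leaving out a library 0 to 3, 0 to 1, 0 to 2, 0 to 2 and 0 to 4. Fitting only the 6 arrays gave 1 for Yap-off against wild-type organoids and 0 for Yap-off against hepatocytes. Without both doubtful libraries the shares of all genes called were 32.3%, 41%, 30.7%, 14% and 21.6% in that order. On the 6 arrays they were 0.306% and 0.717%. For array weights and for leaving out a library, the share over all genes was not counted in these comparisons. Those counts are thus not results about the growth genes. The cause of these shifts was not tested. Deviations of same-numbered Yap-on and Yap-off libraries correlated at -0.064 to 0.071. This cannot tell whether same-numbered libraries share an animal or a batch, which the labels do not say. With the replicate number as a block, 5 growth genes and 5404 of all genes were called. For genes within the background range, such as Gpc3 in Yap-on organoids, the arrays give only a lower bound of the fold.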

Other observations

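Igf1, the postnatal counterpart of Igf2 in liver, measured 5.13, 8.70 and 4.97 in the hepatocyte-labelled libraries and 8.99, 3.89 and 9.13 in the wild-type-labelled libraries, against 4.22 to 4.65 in Yap-off and 3.59 to 3.80 in Yap-on organoids. The 3 libraries with high Igf1 had Igf2 between 3.88 and 4.51, and wild-type-labelled library 2 was low for both (Igf1 3.89, Igf2 4.03). Mest, an imprinted gene expressed from the paternal allele, was high in wild-type-labelled libraries 1 and 3 (7.69 and 6.34) and lay between 3.20 and 3.66 in the other 10.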
